A study of Mus musculus with 3 samples.

Results

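Interferon-signature B cells were taken here as splenic B cells that carried transcripts of 6 interferon-stimulated genes. A barcode was kept with over 200 and under 3500 genes detected, under 15% of its UMIs (unique molecular identifiers, 1 for each RNA molecule captured) from mitochondrial genes, and a top hashtag count at least 3 times the second. It then needed at least 2 UMIs of Cd79a, which encodes a signalling subunit of the B cell receptor, at least 3 UMIs in all of Ifit1, Ifit2, Ifit3, Rsad2, Usp18 and Oasl1, and 0 UMIs of Cd3e, Lyz2, Csf1r, Nkg7, S100a8 and Sdc1. These limits chose 249 of 54971 barcodes. They were compared with the other B cells of their own library, which met the same limits but held fewer than 3 UMIs of the 6 genes.

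The study made 3 single-cell libraries from mouse spleen, 1 for each group, at 12 to 14 weeks of age, after T cells were depleted with CD3 microbeads. The C57BL/6 control library held male mice with a sham minipump and female C57BL/6 mice of matched age. The study's methods name only female mice, for the B6.SLE123 and matched C57BL/6 animals and for its experiments in general. This differs from the male sham mice in the title of the control library. The titles of the Ang II and B6.SLE123 libraries name no sex. The C57BL/6 Ang II library held mice given 490 ug/kg/min of angiotensin II, a hormone that raises blood pressure, by a 2-week minipump from 10 weeks of age, with placebo or with 2-HOBA, a scavenger of reactive lipid aldehydes called isolevuglandins. The B6.SLE123 library held mice of a congenic lupus-prone strain given placebo or 2-HOBA for 6 weeks from 7 weeks of age. Each condition pooled 3 mice, and each library held 2 conditions and 6 hashtag antibodies whose conditions the labels do not give, so the conditions within a library were not compared. With 1 library per group there is no replicate and no test, and a group cannot be told apart from its library. Lists of 3 values below are in the order control, Ang II, B6.SLE123.

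Type I interferons bind a receptor made of the chains IFNAR1 and IFNAR2, whose kinases JAK1 and TYK2 switch on a complex of transcription factors that includes STAT2 and IRF9. The complex binds the interferon-stimulated response element (ISRE) in the promoters of antiviral genes. Interferon gamma uses another receptor, and promoters of its target genes often hold the gamma-activated site (GAS). In lupus, blood cells often carry a raised level of interferon-stimulated genes, and B cells both respond to interferon and make the autoantibodies of the disease.

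On GRCm38 the rule genes are Ifit1 (chr19:34640871-34650009), Ifit2 (chr19:34550694-34576419), Ifit3 (chr19:34583531-34588731), Rsad2 (chr12:26442746-26456452), Usp18 (chr6:121245906-121270917) and Oasl1 (chr5:114923240-114937915). Ifit1, Ifit2 and Ifit3 thus lie in 1 cluster on chromosome 19. Promoters are shown because the letters of the ISRE can be read in them. They were taken from RefSeq on GRCm38.p6 and run from 250 bases before to 50 bases after each listed start. The motif searched was GAAANNGAAA on both strands, where matches may overlap, and the promoters of 3.99% of 27025 genes held it. Of the 6 rule genes 5 had a promoter in the table (all but Usp18), and 3 of these held the motif. The 200 bases before the start of those and of Isg15, an effector outside the rule, follow on the strand of the gene, with each match in capitals.
Ifit1, chr19:34640689-34640888, plus strand: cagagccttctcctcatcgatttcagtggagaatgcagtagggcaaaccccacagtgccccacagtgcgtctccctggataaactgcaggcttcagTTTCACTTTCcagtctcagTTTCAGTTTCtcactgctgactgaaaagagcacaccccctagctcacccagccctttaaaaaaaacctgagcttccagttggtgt
Ifit3, chr19:34583329-34583528, plus strand: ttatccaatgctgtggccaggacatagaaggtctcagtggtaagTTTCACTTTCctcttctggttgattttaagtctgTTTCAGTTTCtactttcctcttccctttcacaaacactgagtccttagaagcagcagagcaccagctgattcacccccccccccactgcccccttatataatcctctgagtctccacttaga
Rsad2, chr12:26456453-26456652, minus strand: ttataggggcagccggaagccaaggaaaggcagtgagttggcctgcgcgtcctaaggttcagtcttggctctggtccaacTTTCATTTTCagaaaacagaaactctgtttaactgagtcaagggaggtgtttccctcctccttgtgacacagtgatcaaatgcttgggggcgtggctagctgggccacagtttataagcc
Isg15, chr4:156200819-156201018, minus strand: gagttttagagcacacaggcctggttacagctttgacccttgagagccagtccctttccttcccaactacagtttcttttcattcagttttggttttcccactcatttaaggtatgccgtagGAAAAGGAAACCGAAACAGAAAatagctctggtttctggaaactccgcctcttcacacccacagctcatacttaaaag
In Ifit1 and Ifit3, which encode antiviral proteins, 2 matches lie on the opposite strand. Read on that strand, they are GAAAGTGAAA and GAAACTGAAA in both genes, and they begin 104 and 85 bases before the start in Ifit1 and 156 and 122 in Ifit3. Rsad2, which encodes the antiviral enzyme viperin, holds 1 match on the opposite strand (GAAAATGAAA). Isg15, which encodes a ubiquitin-like protein, holds 3 overlapping matches on its own strand. Ifit2 and Oasl1 held none in this window, nor did Irf7.

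Among the effector genes described below, 34 of 42 had a promoter in the table and 16 of them held the motif, or 47.1%. It was in 9 of 10 matched interferon-inducible GTPases, in 9 of 11 of the Ifi200 family, in 4 of 15 of MHC class I presentation and in 0 of 7 of MHC class II presentation. The GAS letters TTCNNNGAA, searched in the same way, were in 9.55% of all genes, in 6 of the matched effectors and in 6 of the matched GTPases. A match is a description of letters, not a mapped site.

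The rule left 69 of 12132 B cells in the control library, 100 of 8687 in the Ang II library and 80 of 11664 in the B6.SLE123 library. As a share of B cells this was 0.569% (0.443 to 0.719) in control, 1.15% (0.938 to 1.40) in Ang II and 0.686% (0.544 to 0.853) in B6.SLE123, with 95% Clopper-Pearson intervals. Intervals here and below cover counting error only. The 6 excluded markers had left out 8.63%, 24.2% and 15.7% of the cells with 2 or more Cd79a UMIs, in Ang II most often for a UMI of S100a8 (2164 of 11462 cells). The log2 ratio of the Ang II share to the control share was 1.02 (0.56 to 1.48), that of B6.SLE123 to control was 0.27 (-0.21 to 0.76), and that of B6.SLE123 to Ang II was -0.75 (-1.19 to -0.31).

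Depth moved with these shares: the median B cell held 1808, 2787 and 2002 UMIs. Each cell was therefore thinned to 1000 UMIs and the rule applied again in 20 random draws, which left out 596, 261 and 946 B cells that were shallower. Thinning also removes UMIs of Cd79a and of the excluded markers, so cells both left and entered the B cells counted. These numbered 10807, 8663.8 and 9835.3 on average, so the thinned shares are not of the same cells as those at own depth. The mean shares were then 0.222%, 0.297% and 0.226%, and single draws ran from 0.167% to 0.278%, from 0.219% to 0.356% and from 0.182% to 0.294%. After thinning, the log2 ratio of the Ang II share to control was 0.42 (-0.42 to 1.30) and that of B6.SLE123 to control 0.03 (-0.89 to 0.91). Thinning left a mean of 23.95, 25.7 and 22.25 chosen cells, and both intervals hold 0 as well as the ratio at own depth, so these cells are too few to tell an equal share from the difference seen at own depth.

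Rule UMIs were also counted in barcodes with 0 UMIs of Cd79a. Among those with 3 or more UMIs of Nkg7, a gene of NK cells, 0 of 527, 2 of 449 and 1 of 506 reached 3 rule UMIs, at median depths of 1802, 2825 and 1426 UMIs. The count of 0 allows a share of up to 0.569% as 3 counts of the total, and its Clopper-Pearson interval runs up to 0.698%, which overlaps the interval of the control B cells. In the other libraries the shares were 0.445% (0.0540 to 1.60) and 0.198% (0.00500 to 1.10), whose intervals likewise overlap those of the B cells. Barcodes with 3 or more UMIs of Lyz2, a gene of myeloid cells, had shares of 3.15% (1.96 to 4.78), 3.61% (2.25 to 5.47) and 3.76% (2.65 to 5.17). Their median depths were 2821, 5234 and 2732 UMIs. Those with 3 or more UMIs of S100a8, a neutrophil gene, had shares of 2.50% (1.38 to 4.17), 3.71% (2.34 to 5.56) and 4.38% (2.95 to 6.23) at 1191, 2166 and 1788 UMIs. For both genes these intervals lie above those of the B cells in each library. The median B cell held 1808, 2787 and 2002 UMIs, and the part of depth was not tested.

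**Figure D1:**
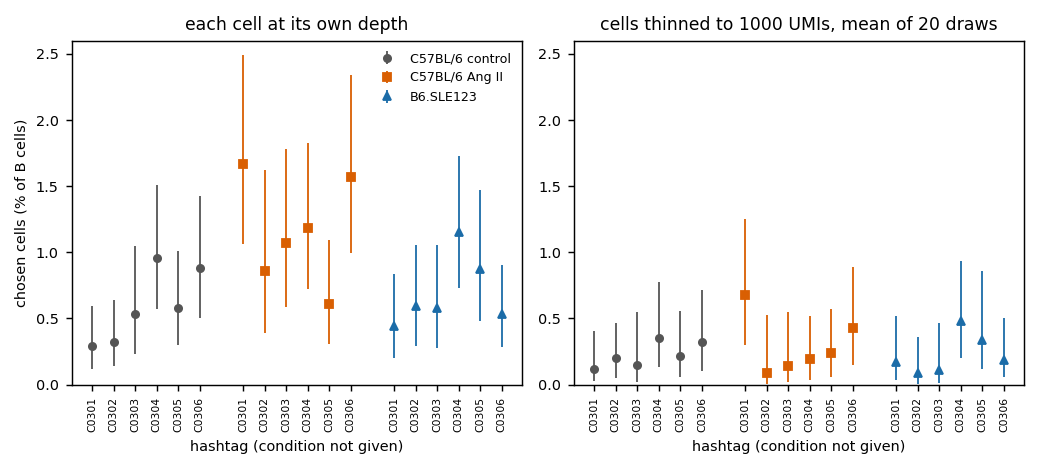
Share of B cells that were chosen (percent, vertical axis) in each of the 6 hashtag populations of the 3 libraries, at own depth (left) and as the mean of 20 draws of 1000 UMIs per cell (right), with 95% Clopper-Pearson intervals (on the right from the rounded mean counts). At own depth the populations run from 0.291% to 1.67%, and each of them holds chosen cells.

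Chosen cells were found in every hashtag population. In control the share ran from 0.291% to 0.959% over the 6 populations with a median of 0.556%, in Ang II from 0.613% to 1.67% with a median of 1.13%, and in B6.SLE123 from 0.442% to 1.15% with a median of 0.584%. The ranges of the 3 libraries overlap. Pairs of libraries shared 415 to 496 cell barcodes, of which 0 were chosen in both. With only 249 of 54971 barcodes chosen, so few shared barcodes could hardly give another count. Carry-over between libraries was not tested.

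The 6 rule genes chose the cells, so their levels are a description. The median chosen cell held 4 of their UMIs in each library, and the highest held 15, 42 and 27. Just inside the threshold 28, 40 and 34 cells had exactly 3 UMIs, and just outside it 75, 110 and 86 B cells had exactly 2. Ifit3 was the most widely detected rule gene, in 84.1%, 69% and 77.5% of chosen cells. Usp18, which encodes a protease that removes ISG15 from proteins and dampens the interferon receptor, was found in 36.2%, 51% and 56.2%, and Rsad2 in 37.7%, 25% and 26.2%. The cells differed in how many of the genes they showed: 3, 12 and 7 cells had a single rule gene and 20, 26 and 25 had at least 4.

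**Figure D2:**
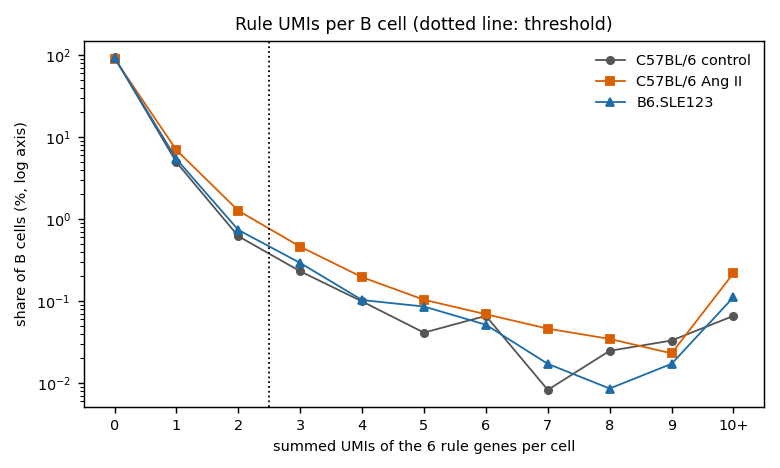
Share of B cells (percent, log axis) by their summed UMIs of the 6 rule genes, 1 line per library at own depth, with cells of 10 or more in the last point and the threshold as a dotted line. The lines fall steeply from 0 UMIs and pass the threshold, which has 75, 110 and 86 cells just below it and 28, 40 and 34 just above, without a gap.

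Type I interferon effectors that the rule did not use were higher in the chosen cells of every library. Of 42 effector genes in the files, 37, 38 and 36 were at least 2-fold higher in the chosen cells and 0 were 2-fold lower. Over all genes with a UMI, 7.88%, 7.02% and 7.51% were 2-fold higher and 5.06%, 4.19% and 5.36% were 2-fold lower. The median log2 ratio of the list was 2.64, 2.44 and 2.38 with genes at 0 in the chosen cells ranked lowest, and 2.85, 2.68 and 2.42 with such genes at the bound that 3 counts over the class set. The median over all genes with at least 20 expected UMIs was -0.06, -0.09 and -0.05. That filter is stricter than the one of the list, and 7, 16 and 12 effectors pass it. Their median log2 ratio was 1.28, 1.38 and 1.55, and 5, 14 and 9 of them were 2-fold higher. Summed over the list, the chosen cells held 18363, 14330 and 15427 CPM, a count scaled to the total UMIs of its class of cells, against 6636, 6210.1 and 6504 CPM in other B cells.

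In all 3 libraries 34 effectors were 2-fold higher, and the counting intervals of 37 lay above 0 in each. The other effectors were Ly6e and Shisa5, which stayed under 2-fold in every library, Ly6a, Ube2l6 and Nmi, which stayed under it in B6.SLE123, and Ifi44, Ifit1bl2 and Oas1g, which were at 0 UMIs in the chosen cells of at least 1 library. Mx1 and Mx2 were not analysed here.

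Isg15 reached 1009.9 CPM (196 UMIs in 49 cells) in control, 542 CPM (218 UMIs in 60 cells) in Ang II and 1109.5 CPM (325 UMIs in 62 cells) in B6.SLE123, against 36.1, 21.9 and 47.5 CPM in other B cells. Its log2 ratios were 4.80 (4.57 to 5.03), 4.63 (4.40 to 4.85) and 4.55 (4.37 to 4.72), and these intervals overlap between libraries. Ifit3b had the highest ratio of the list in every library, at 7.34, 8.23 and 7.23, but it is a near-copy of the rule gene Ifit3, and how reads divide between them is uncertain. The oligoadenylate synthetases, whose products activate the decay of RNA, stood high as well, with Oas2 at 3.78, 3.72 and 3.29 and Oas3 at 4.86, 3.39 and 4.68. Eif2ak2 (PKR), a kinase that stops translation on double-stranded RNA, had log2 ratios of 3.17, 2.94 and 3.09, and Rtp4 had 3.57, 3.51 and 3.39. For each of these 4 genes the counting intervals overlap between all pairs of libraries.

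Bst2 and Zbp1 had their smallest ratio in B6.SLE123, where the other B cells also held most of them. Bst2 (tetherin, which holds budding virus at the cell surface) was at 567, 306 and 519 CPM against 73.5, 62.4 and 136 CPM, with log2 ratios of 2.95 (2.66 to 3.23), 2.29 (2.02 to 2.56) and 1.93 (1.69 to 2.17). Zbp1, a sensor of Z-form nucleic acid, was at 299, 196 and 167 CPM against 24.5, 21.8 and 41.7 CPM, with log2 ratios of 3.61, 3.17 and 2.00. For both genes the counting intervals of control and B6.SLE123 do not overlap: in Zbp1 the first begins at 3.20 and the second ends at 2.42. For Bst2 the interval of Ang II also lies below that of control, and it overlaps that of B6.SLE123. The other B cells of Ang II nevertheless held the least Bst2, at 62.4 CPM. Ly6e, a lymphocyte surface protein, had the lowest ratio of the list that could be computed in each library, at 0.26 (0.15 to 0.37), 0.14 (0.06 to 0.22) and 0.15 (0.05 to 0.25), from a level of 2896, 2875 and 2508 CPM in other B cells.

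**Figure D3:**
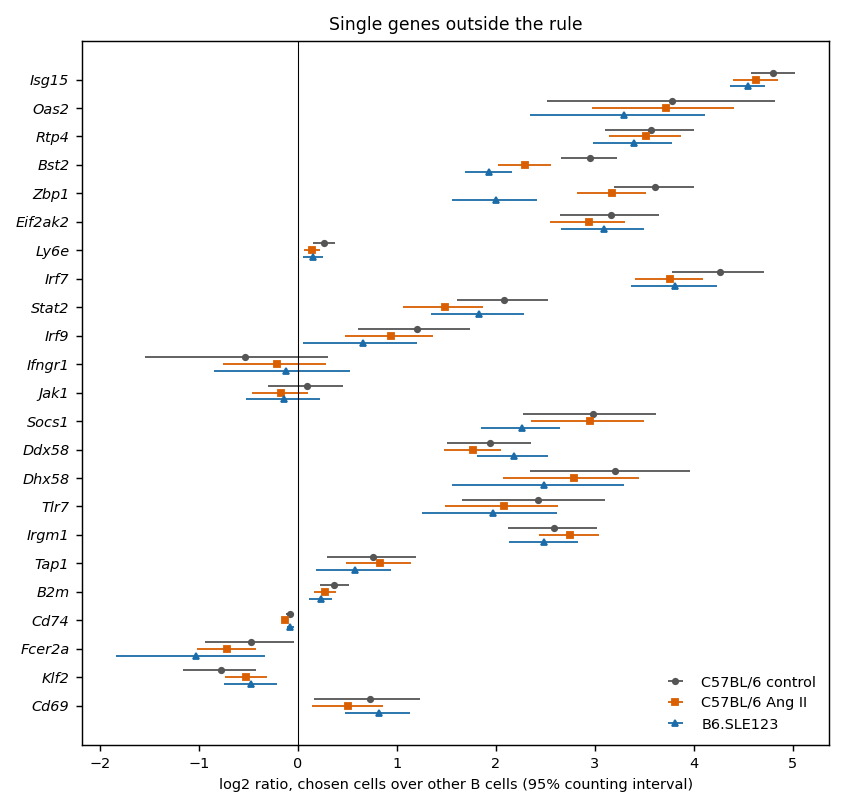
Log2 ratio of chosen cells over other B cells of the same library for genes outside the rule (horizontal axis), 1 point per library with its 95% exact conditional counting interval. Isg15 sits at 4.80, 4.63 and 4.55, Irf7 at 4.26, 3.76 and 3.81, and the intervals of Jak1 span 0.

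Single cells varied in the effectors. They made up 2.01, 1.33 and 1.60 percent of the UMIs of the median chosen cell, against 0.635, 0.598 and 0.661 percent in the median other B cell. Chosen cells ran from 0.768% to 4.37% in control, from 0.388% to 4.92% in Ang II and from 0.488% to 4.15% in B6.SLE123, so the classes overlap. In 82.6%, 70% and 66.2% of chosen cells the value was above the 95th percentile of other B cells. The median chosen cell detected 17, 17 and 18 effector genes and the median other B cell 5, 6 and 6. Depth differed too, at medians of 2045, 3470.5 and 2934 UMIs per chosen cell and 1806, 2782 and 1998 per other B cell, and its part in the number of genes detected was not tested.

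B cells below the threshold were graded in the same genes. In control the summed effectors were at 6473 CPM in B cells with 0 rule UMIs, 8578 CPM with 1, 10206 CPM with 2, 15909 CPM with 3, 16171 CPM with 4 to 5 and 23022 CPM with 6 or more. The same steps in Ang II were at 6073, 7195, 8878, 11246, 12708 and 19450.3 CPM, and in B6.SLE123 at 6369, 7840.3, 10291, 12640.4, 14308 and 20488 CPM. Each step was higher than the one before it in each library, and the cells just outside the rule stood between those with no rule UMI and the chosen cells. In control, however, the counting intervals at 3 and at 4 to 5 rule UMIs overlap (15017 to 16841 and 15122 to 17275 CPM).

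**Figure D4:**
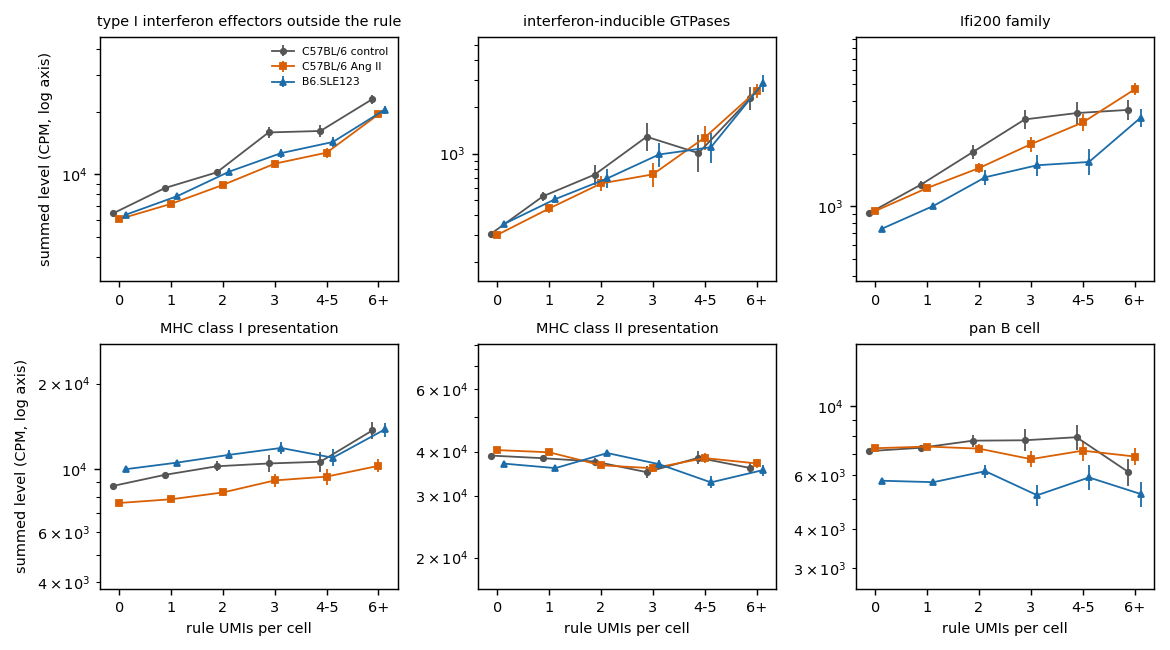
Summed CPM of 6 gene lists (log axis) in B cells grouped by their rule UMIs, 1 line per library, with 95% exact Poisson intervals. Effectors rise from 6473 to 23022 CPM in control between 0 and 6 or more rule UMIs, while the MHC class II and pan B cell lists show no such rise.

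Among the sensors of nucleic acid, those of cytosolic RNA and Tlr7 stood higher. Ifih1, which encodes the RNA sensor MDA5, had log2 ratios of 4.08 (2.89 to 5.08), 3.16 (1.78 to 4.30) and 3.51 (2.46 to 4.41) from 9, 7 and 11 UMIs. Dhx58 (LGP2) had 3.21, 2.79 and 2.49 and Ddx58 (RIG-I) 1.94, 1.77 and 2.18. Tlr7, the endosomal receptor of single-stranded RNA, was at 92.7, 72.1 and 68.3 CPM against 17.2, 17.0 and 17.4 CPM, with log2 ratios of 2.43 (1.66 to 3.11), 2.08 (1.49 to 2.63) and 1.97 (1.25 to 2.62). For Tlr9, the receptor of CpG DNA, they were 0.50 (-0.63 to 1.44), 1.15 (0.63 to 1.63) and 1.02 (0.17 to 1.75). Of the 11 sensor genes 5, 7 and 7 were 2-fold higher, 4 of them in all libraries, and they were Ifih1, Dhx58, Ddx58 and Tlr7. Over all genes with a UMI, 7.88%, 7.02% and 7.51% were 2-fold higher in a library. In control 1 sensor was 2-fold lower (-2.02), and 1, 1 and 0 sensors were at 0 UMIs in the chosen cells. The DNA sensor Aim2 had ratios of 0.25, 0.65 and 0.52, and Tmem173 (STING), which passes on the signal of cytosolic DNA, 0.59, -0.42 and 0.35.

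The signalling chain was uneven, with Irf7, Stat2 and Irf9 higher while the counting intervals of its receptors and kinases included 0. Irf7, the factor that drives interferon alpha genes, was at 237, 219 and 178 CPM against 12.3, 16.2 and 12.6 CPM, with log2 ratios of 4.26 (3.79 to 4.71), 3.76 (3.41 to 4.09) and 3.81 (3.37 to 4.23). Stat2 had ratios of 2.08 (1.60 to 2.53), 1.48 (1.06 to 1.87) and 1.83 (1.34 to 2.28) and Irf9 1.20 (0.61 to 1.74), 0.94 (0.47 to 1.36) and 0.65 (0.05 to 1.20). For the receptor chain Ifnar1 the ratios were -0.60 (-2.05 to 0.52), -0.73 (-1.68 to 0.08) and 0.14 (-0.86 to 0.99) from 6, 12 and 11 UMIs. The intervals of Ifnar2, Ifngr1, Ifngr2, Jak1, Jak2 and Tyk2 likewise included 0 in every library. Irf7 and Stat2 were among the members of this list that were 2-fold higher in every library. Socs1, which inhibits the kinases of the receptor, had ratios of 2.98 (2.27 to 3.61), 2.95 (2.35 to 3.50) and 2.26 (1.85 to 2.64), while Socs3, another inhibitor of the family, was at 0, 0 and 4 UMIs.

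The interferon-inducible GTPases, which attack the vacuoles of intracellular pathogens, had a median log2 ratio of 2.41, 2.02 and 2.09, and 13 of 17 were 2-fold higher in all libraries. Irgm1 had ratios of 2.59, 2.75 and 2.49, and Ifi47, another of the GTPases, 2.41, 2.79 and 2.38. The Ifi200 family, which holds nuclear sensors of DNA and regulators of transcription, summed to 3354, 3241 and 2185 CPM against 948, 978 and 765 CPM, and 8 of its 12 genes were 2-fold higher in all libraries. In single libraries 17, 14 and 15 of the GTPases and 8, 10 and 10 of the Ifi200 genes were 2-fold higher. The shares over all genes with a UMI were 7.88%, 7.02% and 7.51%. Both families contain near-identical copies, so the values of single members are uncertain.

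Ifitm3, which blocks the fusion of virus with the cell, had log2 ratios of 4.24 (3.71 to 4.75), 4.05 (3.50 to 4.57) and 3.38 (3.18 to 3.58), from 37, 38 and 223 UMIs in 10, 17 and 46 cells. Its neighbours behaved otherwise in B6.SLE123, where Ifitm2 was at 3120.3 CPM in chosen cells and 3641 CPM in other B cells, a log2 ratio of -0.22 (-0.32 to -0.13). Ifitm1 there was at 1168 against 1408 CPM, or -0.27 (-0.43 to -0.12). In the control and Ang II libraries, by contrast, other B cells held 3.28 and 2.27 CPM of Ifitm2, and their chosen cells 1 and 3 UMIs. The strain, its treatment and the library cannot be told apart in this contrast. Among interferon-induced chemokines Cxcl10, which attracts activated T cells, had 0, 8 and 1 UMIs in chosen cells, the 8 of Ang II in 4 cells.

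Antigen presentation differed less than the effectors. Genes of MHC class I presentation had a median log2 ratio of 0.58, 0.30 and 0.38. Of these 17 genes 15 were above 0 in all libraries, and the share of all genes that were so is not given here. In single libraries 2, 2 and 0 of them were 2-fold higher, against 7.88%, 7.02% and 7.51% of all genes with a UMI. In all libraries at once, 0 were 2-fold higher. Nlrc5, the activator of class I genes, had 1.36, 1.69 and 0.91, and the peptide transporter gene Tap1 0.76, 0.82 and 0.57. B2m, the light chain of class I, was at 2061, 1584 and 2141 CPM against 1597, 1309.9 and 1824 CPM. Genes of MHC class II presentation had medians of -0.15, -0.10 and -0.05, and the invariant chain gene Cd74 had ratios of -0.08, -0.13 and -0.08.

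**Figure D5:**
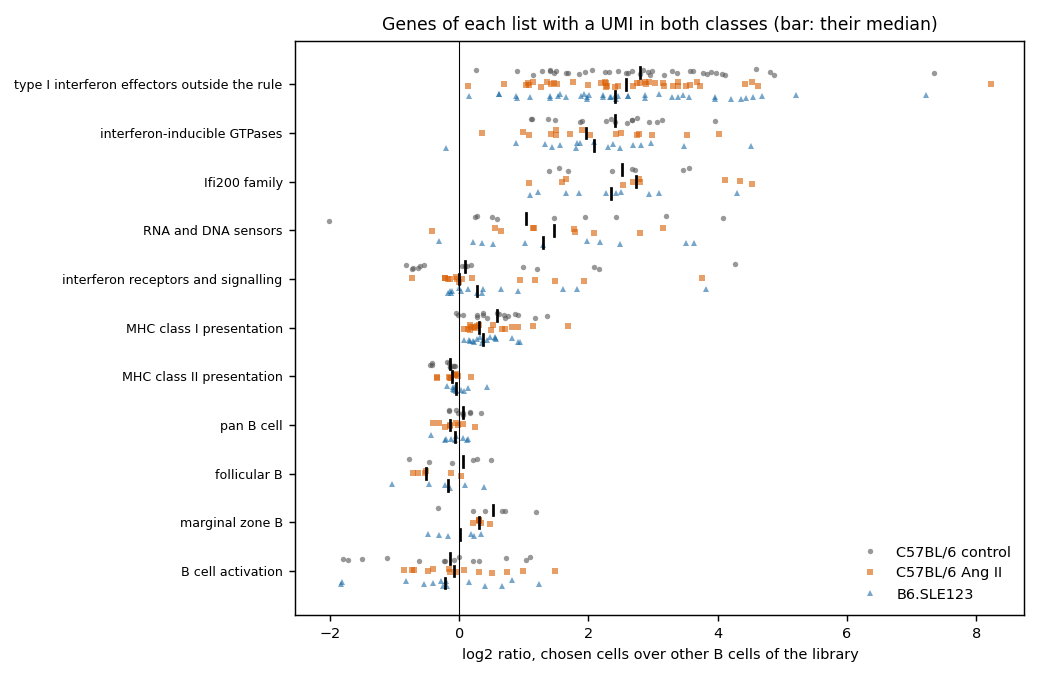
Log2 ratio of chosen cells over other B cells (horizontal axis) for every gene of 11 lists with a UMI in both classes, 1 marker per gene and library, with the median of the plotted genes as a black bar. Effectors, GTPases and the Ifi200 family lie to the right of 0, and MHC class II and pan B cell genes lie around it.

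Pan B cell genes differed little between chosen and other B cells. UMIs of the 9 such genes beside Cd79a were found in 100% of chosen cells in each library. In other B cells they were found in 99.94%, 99.97% and 99.87%. The median log2 ratio of these genes was 0.05, -0.14 and -0.07. Doublets that hold a B cell would also carry such UMIs and were not tested for. Fcer2a (CD23), a surface protein of follicular B cells, was lower at -0.47 (-0.94 to -0.04), -0.72 (-1.02 to -0.43) and -1.03 (-1.84 to -0.33). Klf2, a factor of resting follicular B cells, was lower at -0.78 (-1.17 to -0.42), -0.52 (-0.74 to -0.32) and -0.47 (-0.75 to -0.22). The 6 follicular genes together had medians of 0.05, -0.52 and -0.18 and the 6 marginal zone genes 0.53, 0.30 and 0.01, where Cr2 (CD21) had ratios of 0.22, 0.21 and 0.18. Of the follicular genes 3 were below 0 and 1 was above 0 in all libraries, so the list did not move as a whole. The share of all genes with such signs is not given here. The highest follicular ratio was 0.50, 0.02 and 0.38. Tnfrsf13c, the receptor for the survival factor BAFF, was at -0.54, -0.26 and -0.46.

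Activation genes were mixed. Cd69, an early activation marker that holds lymphocytes in tissue, was higher at 0.72 (0.16 to 1.23), 0.51 (0.14 to 0.86) and 0.82 (0.48 to 1.13), and Myc, a driver of growth, at 1.09 (0.25 to 1.82), 0.98 (0.51 to 1.41) and 0.66 (0.10 to 1.17). The costimulatory gene Cd86 had ratios of 1.03, 0.31 and 1.23. Over the 15 activation genes, however, the medians were -0.22, -0.09 and -0.25, and 3 genes were above 0 and 5 below 0 in all libraries. Shares of all genes with these signs are not given here. Genes of cycling cells had 73, 30 and 87 UMIs in the chosen cells, of which single cells held up to 34, 5 and 61.

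Jchain, which joins secreted IgM and IgA, was the 1 of 7 plasma cell genes that was 2-fold lower in all libraries. In control it was at 0 UMIs in the chosen cells against 101 CPM in other B cells, and in Ang II at 3 UMIs, or 7.46 against 134 CPM, a log2 ratio of -4.17 (-6.45 to -2.62). In B6.SLE123 it was at 259 CPM from 76 UMIs in 10 cells, with 46 in 1 cell, against 1188 CPM in other B cells, with a log2 ratio of -2.20 (-2.54 to -1.87). The counting intervals do not cover how unevenly Jchain UMIs fall over cells. In single libraries 1, 1 and 2 of the 7 genes were 2-fold lower, against 5.06%, 4.19% and 5.36% of all genes with a UMI. UMIs of the 7 genes were found in 65.2, 77 and 78.75 percent of chosen cells and in 58.0, 69.1 and 69.7 percent of other B cells. Of the switched isotypes Ighg2c in B6.SLE123 was at 75.1 against 456 CPM, and Ighg1 at 0 UMIs against 162 CPM. In control and Ang II both were at 0 UMIs in the chosen cells, where other B cells held 12.9 and 3.17 CPM of Ighg2c and 1.07 and 2.16 CPM of Ighg1, too little for a lower level to be detectable. Ighm, the heavy chain of IgM, had a ratio of -0.82 (-0.96 to -0.67) in B6.SLE123, and of 0.10 (-0.03 to 0.22) in control and -0.25 (-0.38 to -0.13) in Ang II. No interferon gene had a UMI in the chosen cells of any library. Over all barcodes within the limits and with 1 hashtag, interferon alpha genes had 0, 0 and 1 UMIs and Ifng 80, 93 and 44.

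Over all lists and kinds of gene, 1297 genes had at least 20 expected UMIs in the chosen cells of each library. At that filter 1.84%, 1.77% and 1.57% of genes were 2-fold higher in a library and 1.61%, 1.46% and 4.52% lower, and 13 were higher and 2 lower in all 3. The 2 lower genes, chosen after their values were seen, were the immunoglobulin kappa variable segments Igkv1-110, with log2 ratios of -1.33, -1.05 and -1.43, and Igkv8-30 at -1.33, -4.58 and -3.75. Igkv8-30 held 10, 1 and 6 UMIs in the chosen cells. Reads of near-identical segments can be split between them in counting, so these values are uncertain. The 1196 genes outside every list, leaving out immunoglobulin and T cell receptor segments, Xist, Tsix and Y-linked genes, were ranked by their weakest ratio over the 3 libraries. Zup1, which encodes a deubiquitinase, led with log2 ratios of 1.84, 1.33 and 1.33. It was followed by Gm20559 at 1.23, 1.48 and 1.25, by Pml, the organiser of nuclear bodies, at 1.44, 1.20 and 1.24, by the helicase gene Helz2 at 1.14, 1.30 and 1.32, and by Slfn2, which keeps T cells quiescent, at 1.35, 1.17 and 1.11. Plac8 (1.10, 1.22 and 0.97), Tcf4, Sp140, Clec2d and Sp110 (1.15, 1.01 and 0.78) completed the first 10.

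At the other end of this ranking, without those kinds of gene, stood Tagln2, which encodes an actin-binding protein, at -0.72, -0.98 and -0.92, and Klf3, a transcriptional repressor, at -0.72, -0.69 and -0.99. Add3, Jund and Tsc22d3 followed, with Tsc22d3 (GILZ, a glucocorticoid-induced protein) at -0.61, -0.62 and -0.54. Vim, the gene of the filament protein vimentin, was at -0.99, -0.54 and -0.85, and Dennd4a, Gimap3, Pxdc1 and March1 (-0.70, -0.61 and -0.45) came last of the 10. None of these was 2-fold lower in all libraries.

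Markers of other cells were counted in the chosen cells beyond the genes of the rule. The 6 T cell markers and the lists of basophils and platelets were at 0 UMIs in all libraries, NK markers at 2, 1 and 0 UMIs, plasmacytoid dendritic cell markers at 0, 2 and 3 and conventional dendritic cell markers at 1, 0 and 0. The neutrophil list was seen in 5.80, 40 and 12.5 percent of chosen cells and in 5.75, 35.2 and 17.2 percent of other B cells. The monocyte and macrophage list was seen in 63.8, 67 and 56.2 percent of chosen cells and in 52.7, 59.7 and 50.1 percent of other B cells. Of its 8 genes 0, 4 and 6 were 2-fold higher, against 7.88%, 7.02% and 7.51% of all genes with a UMI. In Ang II 1 cell held 1517 UMIs of the 4 erythroid genes. In B6.SLE123 2 cells held 117 and 41 UMIs of the monocyte and macrophage list, and the 14 UMIs of C1qa came from 1 cell.

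Without cells above 10 UMIs of any such list, 69, 98 and 78 chosen cells were left, and 37, 38 and 35 of the effectors were 2-fold higher. Of the monocyte and macrophage genes 0, 3 and 2 were then 2-fold higher. Isg15 then had log2 ratios of 4.80, 4.67 and 4.62, and Jchain in B6.SLE123 had -1.65. A list of 5 genes of T-bet CD11c B cells, an activated subset seen in lupus, went from 3 to 1 genes 2-fold higher in B6.SLE123. Over all genes with a UMI the share there was 7.51%. The gene left was Zeb2, a transcription factor, at 1.01 (0.52 to 1.46) against 1.21 with all cells, and at 1.03 (0.31 to 1.66) in control and 0.75 (0.16 to 1.28) in Ang II with all cells. In B6.SLE123 the list summed to 372 against 177 CPM with all cells, and to 300 against 176 CPM without those cells. With all cells, UMIs of the list were found in 31.9, 38 and 51.25 percent of chosen cells. In other B cells they were found in 16.3, 20.7 and 25.7 percent.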

How the data were processed

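The authors deposited raw UMI counts per gene and hashtag counts per barcode from Chromium 5′ libraries, for which the headers name Cell Ranger 6.0.0 and the submitters' processing notes mm10. The libraries summed to 44146350, 59043555 and 63516694 gene UMIs over 18218, 16062 and 20691 barcodes. The study's limits on RNA counts were read as genes detected. No doublet caller was run, and the hashtag rule removes only doublets between hashtags. Members, gene lists and comparisons were chosen with earlier results of these data known.

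Counts were summed over chosen and other B cells of a library and given as CPM with exact Poisson intervals. Ratios carry exact conditional intervals (numpy 2.4.6, scipy 1.17.1), and 2-fold is a size, not a test. The ratio step was tested on simulated data. The thinned values were first taken from 1 random draw, which proved extreme among further draws, and were replaced, after its values were seen, by summaries over 20 draws that include it, the mean for shares and the median for list medians and gene counts. Named genes were members of the lists and the 10 highest and 10 lowest genes outside them by weakest ratio over libraries, leaving out immunoglobulin and T cell receptor segments, Xist, Tsix and Y-linked genes. 2 such segments are named beside the rule. Some members of the lists are counted in list values but not reported here by name. TMM scaling (edgeR 4.0.16) was an alternative. Positions follow GENCODE M21.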

Additional observations from a re-analysis of the deposited data

Results flagged for a closer look

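Hbb-bs, a beta globin gene, stood out because its direction differed between libraries: the log2 ratio of chosen over other B cells was 5.94 in Ang II and -3.28 in B6.SLE123. The difference was not tested. Of its 1190 UMIs in chosen cells of Ang II, 1189 came from 1 cell, and without cells above 10 UMIs of a list of other cells the ratio of Hbb-bs was -0.63 (-5.95 to 1.87) in Ang II and 0.40 (-2.66 to 2.27) in B6.SLE123.

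Mki67, a gene of dividing cells, likewise had a log2 ratio of 1.68 (0.86 to 2.39) in control and -1.57 (-2.57 to -0.73) in B6.SLE123, a difference that was not tested. Its 16 UMIs in control came from 2 cells and its 11 UMIs in B6.SLE123 from 1 cell.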

How the results depend on the processing

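Share ratios between libraries and effector medians kept their sign under the alternatives run. The interval of the B6.SLE123 to control share ratio held 0 in every setting, however, so its direction is not settled. That of Ang II to control held 0 after thinning (-0.42 to 1.30). Without cells over 10 UMIs of a list of other cells, an alternative chosen after seeing the data, the direction changed, among list genes whose interval excluded 0, for Hbb-bs in Ang II and B6.SLE123 (values above) and for Tyrobp, a signalling adaptor of myeloid and NK cells, in B6.SLE123 from 1.30 to -0.49. It also changed for the median of the monocyte and macrophage list in B6.SLE123 from 1.90 to -0.37. The interferon receptor and signalling median in Ang II, near 0, went from -0.0041 to 0.038. Shares of B cells depended on the rule: with a threshold of 2 UMIs they were 1.19%, 2.42% and 1.42%, with 5 UMIs 0.239%, 0.495% and 0.291%, without Ifit3 in the rule 0.313%, 0.783% and 0.437%, and thinned to 1000 UMIs 0.222%, 0.297% and 0.226%, where the log2 ratio of Ang II to control was 0.42. With the study's limits read as UMIs the Ang II and B6.SLE123 shares were 0.835% and 0.500%, and of every cell with 2 or more Cd79a UMIs the Ang II share was 0.872%. The median log2 ratio of the effectors was 1.97 and 1.95 in Ang II and B6.SLE123 with a threshold of 2 UMIs, 2.99 in Ang II with 5, 3.02 and 2.99 in both after thinning, and 1.28, 1.38 and 1.55 over effectors with at least 20 expected UMIs.

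Counts of genes past 2-fold were 24, 51 and 32 higher and 21, 42 and 92 lower, 122, 149 and 133 and 309, 357 and 485 with at least 5 expected UMIs, and as medians of 20 thinned draws 0, 0.5 and 1 and 1, 0.5 and 1, where few genes pass the filter. Without immunoglobulin and T cell receptor segments, chosen after seeing the data, 7, 15 and 34 were lower.

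Leaving out 1 hashtag at a time gave shares of 0.497 to 0.638% in control, 1.05 to 1.29% in Ang II and 0.589 to 0.737% in B6.SLE123, effector medians of 2.60 to 2.81, 2.35 to 2.59 and 2.26 to 2.49, and log2 share ratios to control of 0.85 to 1.21 and 0.05 to 0.46. Genes 2-fold higher then numbered 18 to 22, 31 to 49 and 17 to 25, and lower 11 to 24, 35 to 46 and 78 to 90. The lower count in control was 11 without C0304 and 12 without C0306, the higher count in Ang II 31 without C0301, and that in B6.SLE123 17 without C0304 and 21 without C0305. The cause was not tested. No paired analysis was possible because each group is 1 library and no test was run. Genes with few UMIs have wide intervals, and differences between libraries rest on 1 library each.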
